A study of Rattus norvegicus with 39 samples.

Results

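The mitochondrial genome encodes 1 ribosomal RNA (rRNA) for the small and 1 for the large subunit of the mitochondrial ribosome, which translates the few proteins of the respiratory chain that mitochondrial DNA encodes. Both rRNAs are cut from a common precursor together with mitochondrial transfer RNAs (tRNAs). Spermatozoa keep their mitochondria in the midpiece of the tail, and small RNA libraries catch rRNAs as short fragments. In the deposited table of noncoding transcripts (the ncRNA table), the 2 entries with the biotype mitochondrial rRNA were taken, of 1563 transcripts in that table and 80942 features in the 4 deposited tables of small RNA counts from rat sperm. They are ENSRNOT00000040038 of gene ENSRNOG00000030478, called mt-rRNA A here, and ENSRNOT00000069133 of gene ENSRNOG00000043866, called mt-rRNA B. The sources used here do not pair these identifiers with a subunit, a length or a sequence, so neither sequence is printed. For the same reason the counts of A and B are not per length, and a higher count of one than of the other is not read as a higher level.

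Wild-type male Fischer rats aged 11 to 12 weeks were gavaged daily for 5 days with EGME (ethylene glycol monomethyl ether), a solvent known for its toxicity to spermatocytes. The groups were EGME0 (water vehicle, 0 mg/kg/d, n = 10), EGME50 (50 mg/kg/d, n = 10), EGME60 (60 mg/kg/d, n = 9) and EGME75 (75 mg/kg/d, n = 10). Spermatozoa came from the cauda epididymis 5 weeks after the last dose, and each of the 39 libraries held the total RNA of 1 male, so replicates are animals. Summed counts of the 4 tables ran from 244869 to 24308152 per library, and the tables may count the same read more than once. The labelled cells were checked against the germ cell microRNAs of the miR-34 and miR-449 families. These microRNAs made up a median of 26.3% of the microRNA counts at EGME0 and 13.3% at EGME75, with miR-449c-5p at 0 counts at EGME0.

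Both rRNAs dominated the ncRNA table. A held 13713359 counts over all libraries, 44.1% of the table, and B held 16874274 counts, 54.3%. The next transcript had 30025 counts in all. A and B ranked in the top 2 places of the table in 39 of 39 libraries, and B exceeded A in 34 of 39. Counts per library ran from 5726 to 1418159 for A and from 5993 to 1530506 for B. With counts this high, the 95% Wilson interval of a share of the summed counts reached at most 0.0612 percentage points to either side, in EGME75 replicate 24, where B was 2.45% (2.39 to 2.51). These intervals cover counting error only and are far narrower than the spread between males.

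A few libraries stood apart from their groups. Per summed and per tRNA counts, EGME0 replicate 25 had the highest level of both rRNAs among the controls. On these scales EGME60 replicate 13 had the highest and EGME60 replicate 38 the lowest in their group. Calls that change without one of them are given both ways below, with the largest shifts in value. Per summed counts, the same library was lowest for A and for B in EGME0, EGME60 and EGME75, and the same library was highest for both.

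At the top dose both mitochondrial rRNAs fell more than 3-fold per summed counts. A, as a percentage of the summed counts, ran from 2.93 through a median of 4.50 to 12.5 at EGME0, and from 0.603 through 1.59 to 2.94 at EGME75. All but 1 of the EGME75 libraries lay below the lowest control, and that one, at 2.94, all but met the lowest control at 2.93. B ran from 4.40 through 6.32 to 11.3 at EGME0 and from 0.558 through 1.92 to 3.71 at EGME75, so that for B the groups did not overlap. How many of all transcripts also lacked overlap was not counted, here or per tRNA count. The group means were 5.29% ± 2.85 (SD, n = 10) and 1.67% ± 0.861 (SD, n = 10) for A. For B they were 6.55% ± 2.04 and 1.91% ± 0.935.

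edgeR's quasi-likelihood test, fitted to the 174 transcripts of the ncRNA table that passed its filter with the summed counts as library size, gave A a log2 fold change of -1.66 (SE 0.40, 3.16-fold lower, Benjamini-Hochberg adjusted p = 0.000371). For B the change was -1.77 (SE 0.35, 3.42-fold lower, adjusted p = 1.95e-05). Both passed the threshold of 0.05, where 1.72% of the tested transcripts were called lower, which is 3 transcripts with A and B among them. The third was ENSRNOT00000092518, a processed transcript with a mean of 14.6 counts (log2 fold change -2.26, SE 0.84, adjusted p = 0.0172). Without EGME0 replicate 25 the control means were 4.49% ± 1.35 for A and 6.03% ± 1.28 for B, and the changes at EGME75 were -1.42 for A and -1.65 for B, both past the threshold.

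**Figure D1:**
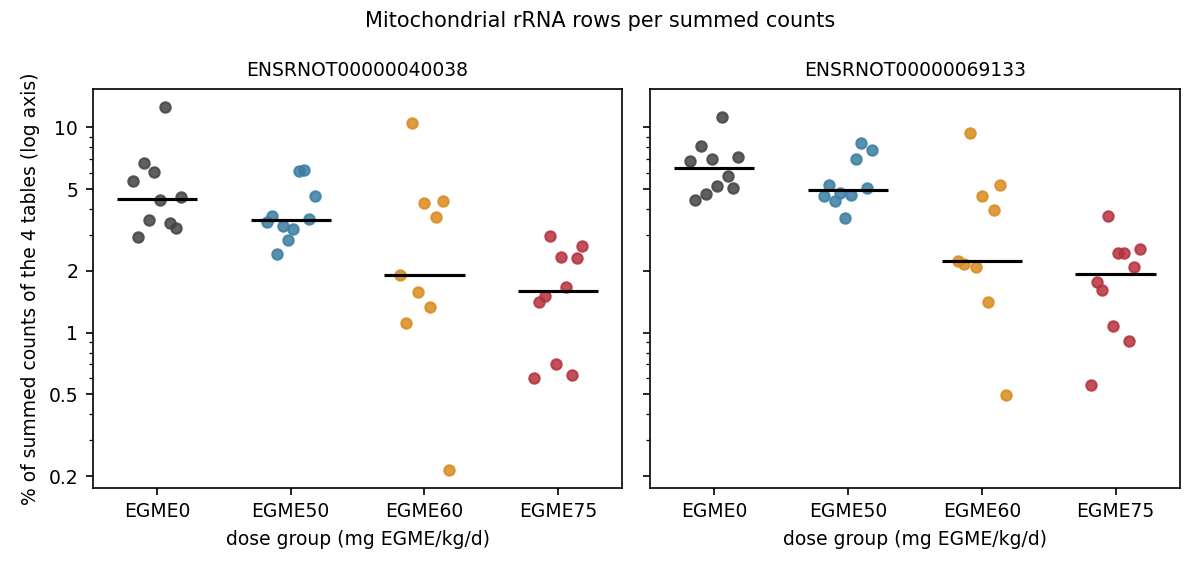
Each point is 1 library's level of mt-rRNA A (ENSRNOT00000040038, left) or B (ENSRNOT00000069133, right), as a percentage of the summed counts of the 4 tables on a log axis, by dose group, and lines are group medians. The EGME75 libraries of B, up to 3.71%, all sit below the lowest control at 4.40%, while the EGME60 libraries spread from below the EGME75 range to near the highest control.

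Per summed counts, EGME60 had the widest range of levels, set by its 2 extreme libraries. A ran from 0.215 through a median of 1.90 to 10.5% of the summed counts (mean 3.21% ± 3.09, SD, n = 9), a 48.6-fold range, against 4.28-fold among controls. B ran from 0.498 through 2.23 to 9.33% (mean 3.51% ± 2.68), an 18.7-fold range, against 2.56-fold among controls. Without replicates 13 and 38 the ranges at EGME60 were 3.93-fold for A and 3.73-fold for B. For A 5 libraries lay below the lowest control and 4 within the control range, and for B 6 lay below it and 3 within.

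Of both rRNAs, only B passed the test at EGME60 per summed counts, with a log2 fold change of -0.90 (SE 0.35, adjusted p = 0.0231, edgeR) where 0.575% of transcripts were called lower, B being the single one. A changed by -0.72 (SE 0.41, adjusted p = 0.101, edgeR), which did not pass. Whether A and B changed by different amounts was tested through their ratio. Without EGME60 replicate 13 the change of A was -1.20 (adjusted p = 0.00586) and that of B -1.24 (adjusted p = 0.00130). With replicates 13 and 38 both left out they were -1.02 (adjusted p = 0.00978) and -1.08 (adjusted p = 0.00232). When the fit held EGME0 and EGME60 alone, the call for B was lost (adjusted p = 0.0622).

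At EGME50 neither rRNA passed the test. A ran from 2.41 through 3.52 to 6.21% of the summed counts (mean 3.94% ± 1.30, SD, n = 10) and B from 3.60 through 4.92 to 8.39% (mean 5.55% ± 1.59). For each rRNA 2 libraries lay below the lowest control and 7 of 10 below the control median. The log2 fold changes were -0.43 for A (SE 0.39, adjusted p = 0.441, edgeR) and -0.24 for B (SE 0.34, adjusted p = 0.590). edgeR called 0% of the transcripts lower here, 39.7% higher, and 82 of 174 had an unadjusted p below 0.05 in either direction. Without EGME0 replicate 25 the changes were -0.19 for A and -0.12 for B, and with the chip as a block that of B turned to 0.0787.

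Neighbouring doses were also compared. Between EGME50 and EGME60 A changed by -0.30 (adjusted p = 0.564, edgeR) and B by -0.66 (adjusted p = 0.116), and between EGME60 and EGME75 A changed by -0.94 (adjusted p = 0.624) and B by -0.87 (adjusted p = 0.448). None of these steps passed the test after adjustment. From EGME60 to EGME75 the SEs were 0.41 for A and 0.35 for B, and the unadjusted edgeR p 0.0251 and 0.0155. From EGME50 to EGME60 the unadjusted p were 0.470 and 0.0640. Between EGME60 and EGME75 7 of 174 transcripts had an unadjusted p below 0.05, against 130 of 174 between EGME0 and EGME60. Without EGME60 replicate 13 the step of B from EGME50 to EGME60 was -0.999 (adjusted p = 0.0148, edgeR), and the steps from EGME60 to EGME75 shrank to -0.46 for A and -0.54 for B. With the chip as a block the latter were -0.464 and -0.461. In order of mean level, A and B both ran EGME0, EGME50, EGME60, EGME75. No neighbours in that order passed the adjusted threshold per summed counts when all males were kept. The comparisons share groups, and EGME0 serves in 3 of them.

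Counting against tRNA avoids the RNAcentral table, which took 22.8% ± 7.40 (SD, n = 10) of the summed counts at EGME0 and 39.95% ± 9.72 at EGME75. The tRNA table, of genomic tRNA genes and their fragments, took 65.1% ± 9.99 and 56.2% ± 8.81. Per 100 tRNA counts, A ran from 3.77 through a median of 6.42 to 26.8 at EGME0 and from 1.08 through 2.87 to 5.03 at EGME75. B ran from 5.67 through 9.97 to 24.1 at EGME0 and from 1.57 through 3.19 to 5.49 at EGME75. B again did not overlap between these groups, whereas for A 6 of the 10 EGME75 libraries lay below the lowest control and the others did not.

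Both falls at EGME75 held per tRNA count. A changed by -1.58 on the log2 scale (SE 0.43, 2.99-fold lower, adjusted p = 0.00131, edgeR) and B by -1.67 (SE 0.36, 3.19-fold lower, adjusted p = 8.04e-05), where 1.72% of transcripts were called lower. EGME0 replicate 25 moved these values most, to -1.21 for A and -1.45 for B when left out, both still past the threshold.

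The lower doses did not pass per tRNA count. At EGME60 A ran from 0.47 through 3.69 to 22.6 per 100 tRNA counts and changed by -0.57 (SE 0.43, adjusted p = 0.210, edgeR). B ran from 1.08 through 3.88 to 20.2 and changed by -0.74 (SE 0.37, adjusted p = 0.0576), with 0% of transcripts called lower and 148 of 174 at an unadjusted p below 0.05 in either direction. Without replicate 13 both passed, at -1.19 for A (adjusted p = 0.00770) and -1.19 for B (adjusted p = 0.00156), and DESeq2 with all males also called B (adjusted p = 0.0494). At EGME50 A ran from 3.83 through 4.92 to 10.6 and changed by -0.54 (adjusted p = 0.360, edgeR), and B ran from 5.36 through 7.17 to 14.4 and changed by -0.31 (adjusted p = 0.538). Without EGME0 replicate 25 these were -0.16 and -0.09.

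**Figure D2:**
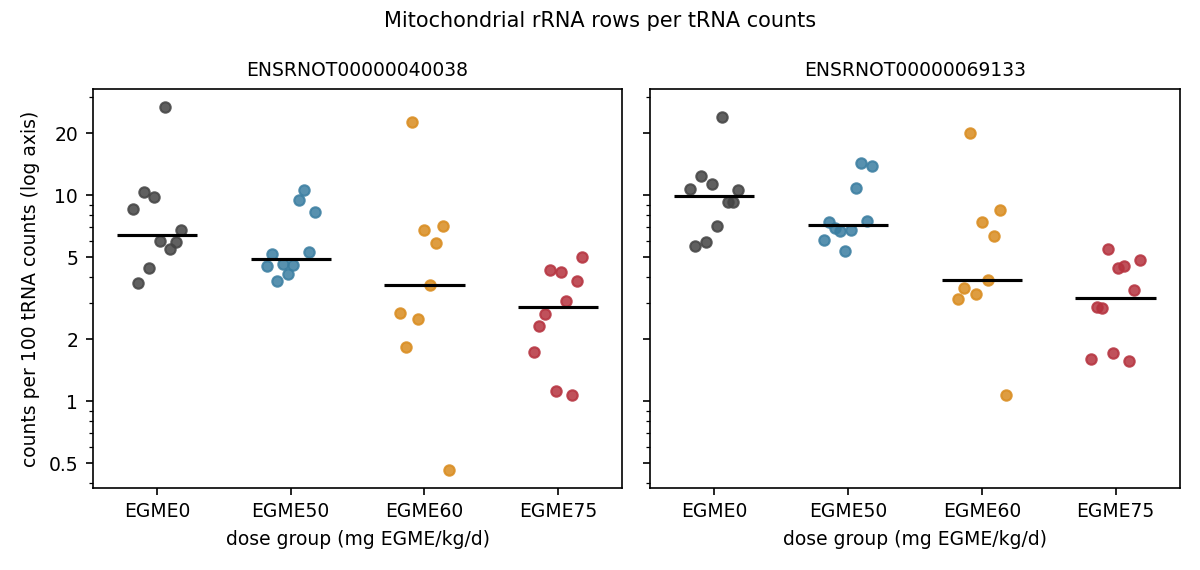
Each point is 1 library's level of mt-rRNA A (left) or B (right) per 100 counts of the tRNA table, on a log axis, by dose group, and lines are group medians. EGME75 libraries of B, up to 5.49, sit below the lowest control at 5.67, and EGME0 replicate 25 and EGME60 replicate 13 stand above the rest of their groups for both rRNAs.

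Within the ncRNA table the pair could hardly move, since it made up 99.2% ± 0.627 (SD, n = 10) of that table's counts at EGME0. The pair took 99.0% ± 0.530 at EGME50, 93.6% ± 8.10 (n = 9) at EGME60 and 93.7% ± 5.16 at EGME75. All other transcripts together held a mean of 0.776% of the ncRNA table at EGME0 and 6.25% at EGME75, and 0.0837% and 0.170% of the summed counts. In EGME60 replicate 38, with the lowest A and B per summed counts, they took 24.4% of the ncRNA table.

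As a plain share of the ncRNA table only B passed the test at EGME75, with a small fall, while under 3 other scalings of that table both A and B passed with large falls. A took from 36.3 through a median of 43.3 to 52.5% at EGME0 and from 35.8 through 43.1 to 50.6% at EGME75, ranges that almost coincide. B took from 47.1 through 56.2 to 61.4% at EGME0 and from 38.998 through 51.3 to 57.1% at EGME75, with 4 controls above every EGME75 library and 2 EGME75 libraries below every control. The log2 change of A was 0.01 (SE 0.09, adjusted p = 0.899, edgeR), and that of B -0.16 (SE 0.06, adjusted p = 0.0145), with 0.575% of transcripts called lower, B alone. As 96.6% of transcripts were called higher there, the adjustment hardly raised the p-value of B (unadjusted edgeR p = 0.0141). With trimmed mean scaling A was -3.96 (adjusted p = 1.13e-05) and B -4.03 (adjusted p = 3.80e-06), with DESeq-type size factors -2.77 and -2.80, and per ncRNA count without the pair -2.84 and -2.95, all past the threshold. Transcripts called lower under these scalings made up 37.9, 8.05 and 12.6% of those tested, in that order. For the plain share, the call for B was lost under 4 of the alternatives: with the chip as a block (adjusted p = 0.207), with DESeq2 (0.199), with no filter (0.337) and with the permutation test (0.0632). It was also lost without EGME75 replicate 7 (0.0585).

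At the lower doses the plain shares were as follows. A took 40.9% ± 3.26 (SD, n = 10) at EGME50 and 41.6% ± 9.17 (n = 9) at EGME60, from 22.8% in replicate 38 to 52.6% in replicate 13. B took 58.1% ± 2.86 and 52.0% ± 4.56. From EGME0, A changed by -0.07 at EGME50 (adjusted p = 0.546, edgeR) and -0.05 at EGME60 (adjusted p = 0.625), which became -1.19 and -1.57 with trimmed mean scaling (adjusted p = 0.189 and 0.0573). B changed by 0.05 (adjusted p = 0.558) and -0.11 (adjusted p = 0.0821), which became -1.01 and -1.81 (adjusted p = 0.221 and 0.0166) with that scaling. At EGME60 trimmed mean scaling called 4.6% of transcripts lower. Between EGME50 and EGME60 B changed by -0.16 (adjusted p = 0.0190, edgeR), where 1.15% of transcripts were called lower and 87.9% higher. A changed by 0.02 (adjusted p = 0.799, edgeR), and by -0.388 with trimmed mean scaling. This call for B held under 3 of 10 alternatives, and was lost among others with the chip as a block (adjusted p = 0.0592), with only both groups fitted (0.128), with DESeq2 (0.214) and with no filter (0.307). It was also lost without EGME60 replicate 22 (0.0630).

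**Figure D3:**
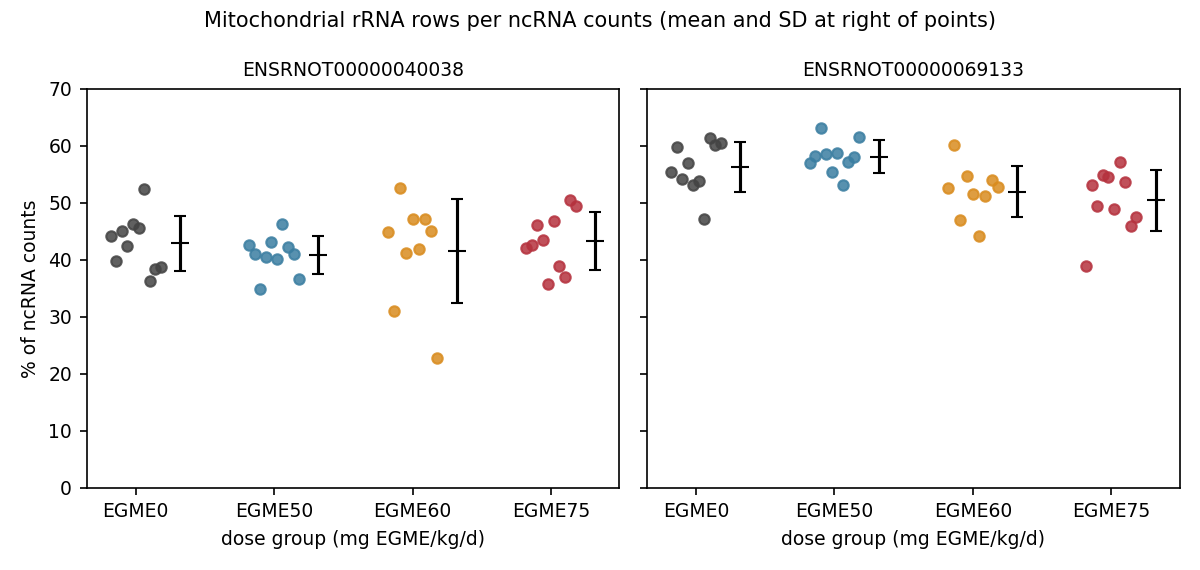
Each point is 1 library's share of the ncRNA table held by mt-rRNA A (left) or B (right), in percent on an axis from 0, by dose group, with the group mean and SD. Mean shares lie between 40.9 and 43.3% for A and between 50.4 and 58.1% for B in all 4 groups.

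A and B varied together from male to male. Over all 39 libraries the level per summed counts spanned a 58.2-fold range for A and a 22.6-fold range for B, whereas the ratio of B to A spanned a 2.59-fold range. Without EGME60 replicate 38 these ranges were 20.8-fold, 20.2-fold and 2.17-fold. The ratio was 1.33 ± 0.244 (SD, n = 10) at EGME0, 1.44 ± 0.191 at EGME50, 1.34 ± 0.469 (n = 9) at EGME60 and 1.19 ± 0.236 at EGME75. It uses no denominator other than the pair itself. Since transcript lengths were not at hand, only its change between groups is read here.

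On the log2 scale the ratio ran from -0.16 through a median of 0.38 to 0.76 at EGME0, from 0.20 through 0.50 to 0.86 at EGME50, from -0.16 through 0.23 to 1.21 at EGME60 and from -0.14 through 0.21 to 0.61 at EGME75. All 4 ranges overlap. The lowest and highest ratios of the series were both at EGME60, in replicate 13 with the highest and replicate 38 with the lowest levels of that group. EGME0 replicate 25, the control with the highest levels, had the lowest ratio among controls.

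No change of the ratio passed a two-sided permutation test of the mean log2 ratio, adjusted by Benjamini-Hochberg over 5 comparisons and exact where EGME60 (n = 9) entered. From EGME0 the difference was 0.12 at EGME50 (permutation p = 0.286, adjusted 0.549), -0.04 at EGME60 (exact permutation p = 0.829, adjusted 0.829) and -0.17 at EGME75 (permutation p = 0.184, adjusted 0.549). EGME60 differed from EGME50 by -0.15 (exact permutation p = 0.333, adjusted 0.549), and EGME75 from EGME60 by -0.14 (exact permutation p = 0.439, adjusted 0.549). These p-values do not show that the ratio stayed equal, and they do not show that A and B fell by different amounts.

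**Figure D4:**
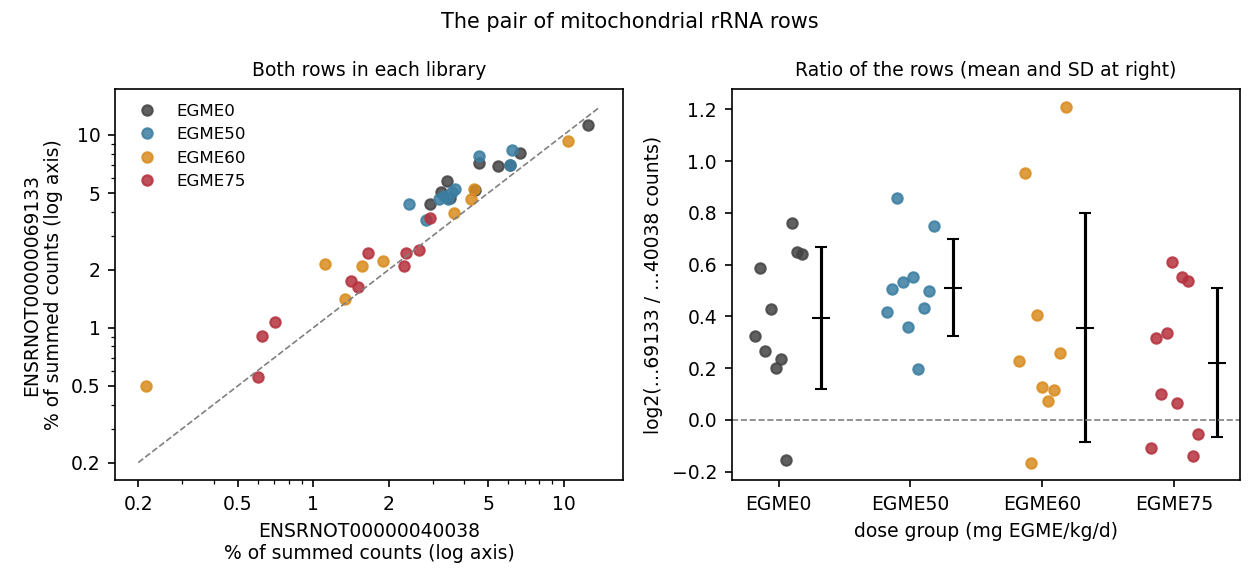
Left, the level of mt-rRNA B against that of mt-rRNA A in each library, in percent of the summed counts on log axes, with a dashed line where both are equal; right, the log2 ratio of B to A by dose group with the mean and SD. Points follow the line over a 58.2-fold range of A, and the ratios of all 4 groups overlap, with single libraries from -0.16 to 1.21.

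The pair was set against the other transcripts of its own table. The median log2 fold change of all 174 tested transcripts, A and B included, was 1.19 at EGME50, 2.32 at EGME60 and 2.70 at EGME75 per summed counts, and 64.4% of them were called higher at EGME75. At that dose A differed from the median by -4.36 and B by -4.48, as the third and second lowest of the 174. Scaling shifts the median itself, which at EGME75 was 2.96 per tRNA count, 4.67 per ncRNA count, 0.58 with edgeR's trimmed mean of M-values, 1.85 with DESeq-type size factors and 1.53 per ncRNA count without A and B. Relative to it A was -4.54, -4.66, -4.55, -4.62 and -4.37, and B -4.64, -4.83, -4.61, -4.64 and -4.48, in that order. Since a scaling shifts all transcripts nearly alike, these differences repeat the same contrast and are not separate evidence. The number of calls depended on the scaling, with 3 lower and 112 higher per summed counts but 66 lower (37.9%) and 60 higher (34.5%) with trimmed mean scaling. A transcript could pass the filter through a dosed group in which it was high, so these medians and shares may lean upward. Of the 174 transcripts, 4 had 0 counts at EGME0.

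**Figure D5:**
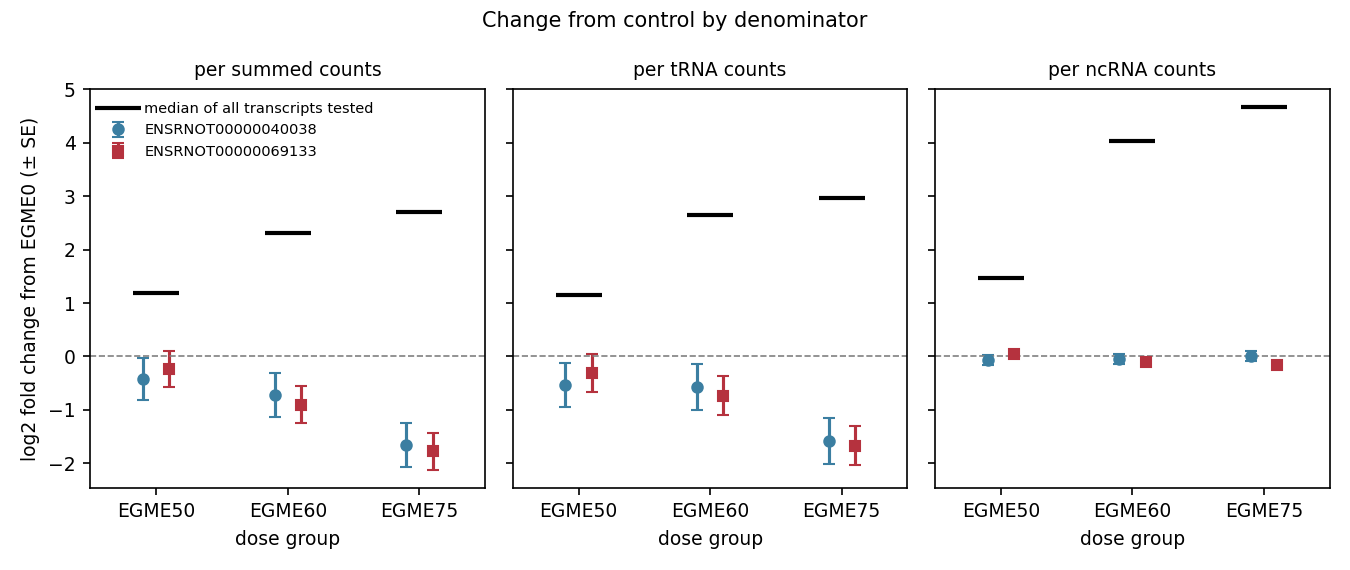
Log2 fold change of mt-rRNA A (circles) and B (squares) from EGME0 with its SE, by dose group and for 3 library sizes (summed counts, tRNA counts and ncRNA counts), with the median of all transcripts tested as a black dash. Changes at EGME75 are -1.66 and -1.77 per summed counts and -1.58 and -1.67 per tRNA count but 0.01 and -0.16 per ncRNA count, and the median of all transcripts is above both rRNAs in all 9 positions.

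Other products of the same genome were almost unseen. The 4 mitochondrial tRNAs in the ncRNA table had 3, 6, 2 and 4 counts over all 39 libraries, and none reached the filter, so they could not be set beside the rRNAs. The other rRNAs of the ncRNA table, of biotype rRNA and so transcribed from nuclear genes, numbered 127, of which 48 were tested. Per summed counts 26, 48 and 48 of the 48 were called higher at EGME50, EGME60 and EGME75 and 0 lower (edgeR), with median changes of 1.32, 2.82 and 3.32. Transcripts high only at a dose could pass the filter, so the tested members of each class may lean upward. The treatment of reads fitting several features is not known, so members of a class may share reads and need not be separate. Long intergenic noncoding RNAs had 23 of 26 called higher at EGME75 per summed counts (median 4.35). Fewer calls fell in other classes, where at EGME75 4 of 27 tested transcripts of biotype misc_RNA and 21 of 48 small nuclear RNAs were called higher per summed counts, with medians of 0.41 and 1.11, and with trimmed mean scaling 25 and 32 of them were called lower. Beside the nuclear rRNAs stand the shares called higher among all transcripts, 39.7, 71.8 and 64.4%. With trimmed mean scaling 0, 19 and 31 of the 48 nuclear rRNAs were called higher, beside 0.575, 23.6 and 34.5% of all transcripts. The mitochondrial rRNAs and the tested nuclear rRNAs thus changed in opposite directions at EGME75 per summed counts, and their difference was not tested.

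Sequencing chips, 13 with 3 libraries each, mixed the dose groups. On 6 chips a control ran beside an EGME75 library, and there EGME75 was lower for A and for B in 6 of 6 chips, per summed counts and per tRNA count alike. The median within-chip log2 difference per summed counts was -0.90 for A and -1.41 for B. Where a chip held 2 libraries of a dose, their mean log2 level was used. On 5 chips with EGME0 and EGME60 the dosed value was lower for A and B in 4, and on 6 chips with EGME50 it was lower in 4. With the chip as a block in edgeR, the changes at EGME75 were -1.47 for A (adjusted p = 0.00635) and -1.64 for B (adjusted p = 0.000608).

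The marker microRNAs of germ cells and of other cells also differed in range between the groups, which was not tested. MicroRNA counts per library ran from 1098 to 38208 at EGME0 and from 139 to 8633 at EGME75. The extremes of a range can therefore rest on few counts, above all at EGME75. Germ cell microRNAs, of which 6 of 6 were in the microRNA table, made up from 19.8 to 33.1% of the microRNA counts at EGME0, 11.1 to 25.5% at EGME50, 10.9 to 28.1% at EGME60 and 6.47 to 22.1% at EGME75. Blood cell microRNAs, 6 of 7 in the table, summed to between 0 and 0.343%, 0.119 and 1.24%, 0.0216 and 2.17%, and 0.248 and 4.82% in those groups, with miR-144-3p at 0 at EGME0, EGME50 and EGME75. Epithelial and muscle microRNAs, 9 of 9 in the table, summed to between 1.63 and 3.92%, 1.56 and 7.91%, 1.56 and 13.1%, and 3.59 and 13.2%, with miR-1-3p at 0 in all 3 dosed groups. Not all members followed the sum of their list. In order of dose, miR-142-5p had 43, 19, 18 and 7 counts in all. For miR-133a-3p they were 173 (in 2 of 10 libraries), 15, 15 and 8. The most counted epithelial and muscle microRNA in each group was miR-145-5p, with 2161, 3678, 7288 and 1847 counts. The part of the differences in marker shares in the fall of A and B was not tested. In bulk RNA, fewer spermatozoa among the cells and less rRNA in each spermatozoon cannot be told apart.

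The features whose levels most resembled those of the pair were found by Spearman correlation with the sum of A and B per summed counts over the 39 libraries, among features that averaged 10 or more counts per library. Features with equal counts in every library were entered once. The coefficients describe these libraries only, since all values share the library and its denominator. Of 98 microRNAs (median rho 0.50), the nearest were miR-34b-3p (rho 0.81), miR-34c-3p (0.79) and miR-3580-3p (0.78). The first pair belongs to the miR-34 family of germ cells. Their RefSeq mature sequences are shown 5′ to 3′, with the seed (bases 2 to 8) in capitals, because miR-34b-3p and miR-34c-3p share it and miR-3580-3p does not. In the GRCr8 build, which is not the build of the counts, they lie on the minus strand at chr8:60306621-60306642, chr8:60306101-60306122 and chrX:150486426-150486447.
rno-miR-34b-3p: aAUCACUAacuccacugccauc
rno-miR-34c-3p: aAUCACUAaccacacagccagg
rno-miR-3580-3p: uGACUAGGguaguaugaguaga

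Levels of miR-34b-3p, scaled to 1e6 summed counts, were 251 ± 159 (SD, n = 10) at EGME0, 165 ± 107 at EGME50, 110 ± 98.1 (n = 9) at EGME60 and 31.5 ± 26.003 at EGME75. Those of miR-34c-3p were 61.6, 41.3, 21.9 and 4.37 in the same order, and those of miR-3580-3p 27.95, 19.9, 10.2 and 4.93. These levels describe microRNAs that were chosen for their likeness to the pair in the same libraries.

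In the other tables the nearest features were fewer or of the same kind. In the RNAcentral table, URS00007CBB77 and URS00007D4C97, both classed as rRNA there, had a rho of 0.97 with the pair (median of 1822 entries 0.37). Other entries classed as rRNA mostly went the other way: of 220 distinct ones, 50 had a rho of at least 0.5 and 162 a rho of -0.5 or below. URS00007CBB77 stood at 1186 ± 540 on that scale at EGME0 and 412 ± 206 at EGME75. Whether these entries hold reads also counted for A or B cannot be read from the tables. Entries classed as rRNA may also share reads with one another. The nearest tRNA genes were 3 serine tRNAs with anticodon GCT, chr1.trna10567, chr10.trna10835 and chr17.trna1635. Each had a rho of 0.64 (median of 186 distinct count patterns 0.03). As near copies they may share reads, and chr10.trna10835 stands for 3 genes with equal counts. Within the ncRNA table, ENSRNOT00000092518 had a rho of 0.59 and ENSRNOT00000077967 a rho of 0.03, beside a median of -0.55 over 85 transcripts.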

How the data were processed

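Small RNA of sperm from 39 rats was sequenced from 10 ng of RNA with an Ion total RNA-seq kit after mirVana isolation with DNase, per the labels' protocols. The authors deposited raw sense-strand counts as 4 tables (405 microRNAs, 402 tRNA genes, 1563 ncRNA transcripts, 78572 RNAcentral entries). FastQC, Bowtie and DESeq2 are named in the submitters' processing notes, without versions. The counting program, the annotation release and the treatment of reads fitting several features are not given in the sources used here, so the tables may share reads. All values were whole numbers, and unmatched columns numbered 0.

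The ncRNA table was fitted with edgeR 4.0.16 (R 4.3.3; limma 3.58.1, data.table version 1.17.8): filterByExpr by group kept 174 of 1563 transcripts (99.9% of counts), the library size was the summed counts of the 4 tables, the tRNA total or the ncRNA total with no further scaling factor, and robust quasi-likelihood tests used all 39 libraries, with Benjamini-Hochberg adjustment over the 174 and a threshold of 0.05. Common biological coefficients of variation were 0.795, 0.862 and 1.02. The ratio used log2 counts with a pseudocount of 0.5 and 100000 resamples, or all regroupings with EGME60. Python 3.11.15 ran numpy 2.4.6, scipy 1.17.1, pandas 2.3.3 and matplotlib 3.10.9. DESeq2 1.42.0 was an alternative. The fit was tested on simulated data. Named features were the pair, mitochondrial tRNAs with a mean of at least 10 counts (none) and the nearest features by Spearman correlation: 3 each for microRNAs and tRNA genes, 2 each for ncRNA and RNAcentral. The members, lists and tests were chosen with earlier results of these data known. RefSeq gave the 3 microRNA sequences. Mitochondrial rRNA sequences were not used here.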

Additional observations from a re-analysis of the deposited data

Results flagged for a closer look

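Of 28 group-by-quantity combinations checked for a single library far from the rest of its group (Dixon's ratio of the gap to the range), 6 exceeded the 95% critical value. Chance flags about 1 in 20 such groups if their values are normally distributed, which was not tested. The combinations also share libraries, so they are not independent checks. The 6 flags came from 2 libraries. EGME0 replicate 25 held mt-rRNA A at 12.5% of the summed counts (next highest control 6.71%, gap over range 0.606), at 26.8 per 100 tRNA counts (0.715), and mt-rRNA B at 24.1 per 100 tRNA counts (next 12.4, 0.633). EGME60 replicate 13 held A at 10.5% of the summed counts (next 4.37%, 0.594) and at 22.6 per 100 tRNA counts (0.701), and B at 20.2 per 100 tRNA counts (next 8.49, 0.612). Both were the highest of their groups. No library exceeded the critical value in the ratio of B to A or in the shares of the ncRNA table.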

How the results depend on the processing

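For 35 results, 309 values were recomputed under 17 kinds of alternative setting besides single left-out males, not every setting applying to every result, and 269 of them kept direction and side of the threshold. The falls of mt-rRNA A and B at EGME75 per summed and per tRNA count did so in all settings run (log2 -1.82 to -1.35 and -1.92 to -1.47 per summed count, -1.91 to -1.41 and -1.98 to -1.59 per tRNA count). Counting error was at most 0.0612 percentage points of the summed counts, against SDs between males of 0.861 to 3.09 points. No paired analysis was possible because no replicate number occurs in more than 1 group, so the numbers pair no males; the chip served as a block instead. Leaving out libraries under 1000 counts removed 0. Where a value changed, the cause was not tested.

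With the chip as a block B at EGME50 was 0.0787 per summed count. Per ncRNA count B was -0.111 at EGME75 and -0.217 from EGME50 to EGME60 (adjusted p = 0.0592), neither past the threshold, B from EGME60 to EGME75 was 0.0139, and A from EGME50 to EGME60 was -0.0164. With only the compared groups fitted, B at EGME60 per summed count was -0.902 and B from EGME50 to EGME60 per ncRNA count -0.160, both past it no longer. DESeq2 gave B at EGME60 per tRNA count -0.739, past it, and per ncRNA count B at EGME75 -0.158 and from EGME50 to EGME60 -0.160 (adjusted p = 0.214), not past it. Without the filter the latter pair were -0.158 and -0.160 (adjusted p = 0.307), not past it. The permutation test gave, per ncRNA count, -0.162 for B at EGME75, not past it, and -0.00993 for A from EGME50 to EGME60.

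Other scaling of the ncRNA table removes the near-constancy of the pair there. B at EGME75 kept its call, at -4.03, -2.80 and -2.95 under the 3 scalings that follow. Transcripts called lower under them made up 37.9, 8.05 and 12.6% at EGME75 and 4.6, 0.575 and 7.47% at EGME60, in that order. From EGME60 to EGME75 the share was 14.9% with trimmed mean scaling. With trimmed mean scaling A was -3.96 at EGME75 (adjusted p = 1.13e-05), -0.388 from EGME50 to EGME60 and -2.39 from EGME60 to EGME75 (adjusted p = 0.0120), and B was -1.01, -1.81 (adjusted p = 0.0166), -0.804 and -2.22 (adjusted p = 0.0120) at EGME50, at EGME60 and for these 2 steps. With DESeq-type size factors A was -2.77 at EGME75 (adjusted p = 0.000122), -0.275 and -1.51 for the steps, and B was -0.787 at EGME50, -1.45 at EGME60 (adjusted p = 0.0225) and -0.668 from EGME50 to EGME60. Per ncRNA count without the pair A was -1.40 at EGME60 (adjusted p = 0.0376), -2.84 at EGME75 (adjusted p = 4.87e-05), -0.829 and -1.44 for the steps, and B was -0.442 at EGME50, -1.65 at EGME60 (adjusted p = 0.0110) and -1.21 from EGME50 to EGME60.

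Settings chosen after seeing the data left out libraries. Without EGME60 replicates 13 and 38, A at EGME60 was -1.02 per summed count and -1.02 per tRNA count (adjusted p = 0.0147), B at EGME60 -1.04 per tRNA count (adjusted p = 0.00394), and B from EGME50 to EGME60 -0.84 (adjusted p = 0.0233) and -0.73 (adjusted p = 0.0478), all past the threshold. Without the 2 libraries under 1e6 summed counts A at EGME75 per ncRNA count was -0.0183.

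Leaving out 1 male at a time gave at EGME60, per summed count, -1.20 to -0.48 for A, and per tRNA count -1.19 to -0.19 for A and -1.19 to -0.52 for B; from EGME50 to EGME60 B ran from -0.999 to -0.52 per summed count and from -0.88 to -0.29 per tRNA count, each past the threshold only without EGME60 replicate 13, and A from -0.652 to 0.127 per tRNA count. Per ncRNA count A ran from -0.0957 to 0.0321 at EGME60, -0.0154 to 0.0480 at EGME75, -0.0243 to 0.104 from EGME50 to EGME60 and -0.0203 to 0.108 from EGME60 to EGME75. B ran from -0.142 to -0.0865 at EGME60 (past it without EGME0 replicate 25 or EGME60 replicate 6), -0.184 to -0.122 at EGME75 and -0.188 to -0.133 from EGME50 to EGME60 (lost without EGME60 replicate 22, adjusted p = 0.0630). The ratio at EGME60 ran from -0.143 to 0.0284.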
